A study of Mus musculus with 2 samples.

Results

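The genes described here carry glucose into the cell, break it down to pyruvate and lactate, and route it into the pentose phosphate pathway. The 39 genes were chosen by name for their role and were found in the deposited count table by Entrez gene ID, out of 24532 gene IDs. Each gene's count is the sum of its transcript rows (1 row for 24 of the 39 genes, several for 15). All 39 had at least 10 reads in the higher library, the floor for calling a gene measured.

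RNA was sequenced from freshly sorted muscle stem cells, which reside beneath the sheath of muscle fibres and express Pax7, of male C57BL/6 mice. There were 2 libraries, 1 of wild-type (WT) and 1 of double-knockout (dKO) cells, so nothing below could be checked against replicates, and every comparison is one of library with library. In dKO mice a Cre recombinase that tamoxifen switches on in Pax7-expressing cells (Pax7-CreER) is combined with Esr2–/–, in which both copies of the estrogen receptor beta gene are lost. They also carry a gene that Cre can delete and that is not reported here. The same protocol text stands for both genotypes: tamoxifen (20 mg/mL in oil) by mouth on 5 days in a row at 3 months of age, then sorting of limb muscle cells that lack CD31, CD45 and Sca1 and carry Vcam1. The titles bear the mark 6M, whose meaning, like the number of mice per library and whether WT mice carried Cre, is not stated in the sources used.

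Glucose enters through facilitative transporters of the SLC2A family and is trapped by hexokinases. Phosphofructokinase commits the sugar to glycolysis and is driven by fructose 2,6-bisphosphate, which the PFKFB enzymes make and break down. Pyruvate then leaves as lactate through monocarboxylate transporters or enters mitochondria through pyruvate dehydrogenase, which PDK kinases switch off, while the pentose phosphate branch supplies NADPH and ribose. Quiescent muscle stem cells are known to rely more on oxidation, and to turn up glycolysis when they activate.

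Assigned reads numbered 36636680 in WT and 43699831 in dKO, and 14885 genes were measured. Levels are counts per mega-read of library size scaled by trimmed means of M values (CPM), and a fold is the dKO over the WT CPM with an exact 95% interval that covers counting error only. The log2 ratio is that of CPM + 1. Esr2 had 71 reads in WT and 45 in dKO, which checks nothing about the deletion since the deleted part is not given. All 10 muscle stem cell markers were present, 5 above 0 and 5 below, with a median log2 ratio of 0.11. Their sums were 8682 CPM in WT and 11340 in dKO. Pax7 was among the lower ones, at 22335 reads in WT and 12620 in dKO, and Vcam1 among the higher, at 23795 and 42383. The sort's excluded cell types were represented in both libraries and lower in dKO: all 12 endothelial markers (median log2 ratio −1.47), all 12 immune markers (−1.86) and 9 of 10 fibro-adipogenic progenitor markers (−1.27) were below 0, and none was at 0 reads. Summed, the endothelial markers had 761 CPM in WT and 361 in dKO, the immune markers 198 and 58.6, and the progenitor markers 2239 and 1362. Of the 20 myofibre markers 17 were below 0, with a median of −0.48 and sums of 1443 and 1202 CPM. Among them Tnnt1 was higher by 2-fold (427 and 1179 reads, log2 ratio 1.38). Red cell genes went the other way. With near-identical copies summed, the alpha globins had 6941 reads in WT and 11080 in dKO (1.60-fold, 1.55 to 1.64). The beta globins had 5803 and 8880 (1.53-fold, 1.48 to 1.58), and Alas2 had 211 and 275 (log2 ratio 0.33).

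Promoter sequences of 5 genes with different outcomes are printed here because these genes carry the main contrasts described below: Hk2, Slc2a1 and Slc16a1 were higher in dKO, and Pfkfb3 and Hk1 were lower. Each is the 250 bases before an annotated start (245 of them for Slc2a1), read 5′ to 3′ on the gene's strand, from RefSeq on GRCm38.p6, the assembly that mm10 names. Capitals mark ACGTG on either strand, the core letters of the hypoxia response element.
Hk2, chr6:82774455-82774704, minus strand: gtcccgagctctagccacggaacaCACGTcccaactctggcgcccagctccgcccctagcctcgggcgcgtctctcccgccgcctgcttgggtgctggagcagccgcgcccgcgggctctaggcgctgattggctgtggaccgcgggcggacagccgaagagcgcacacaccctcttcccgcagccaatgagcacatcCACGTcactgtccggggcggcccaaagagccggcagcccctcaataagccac
Slc2a1, chr4:119108495-119108739, plus strand: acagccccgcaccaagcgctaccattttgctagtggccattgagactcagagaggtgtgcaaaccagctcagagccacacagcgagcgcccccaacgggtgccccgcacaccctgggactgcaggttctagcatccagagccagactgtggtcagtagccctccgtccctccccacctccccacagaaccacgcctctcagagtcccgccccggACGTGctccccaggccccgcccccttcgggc
Slc16a1, chr3:104638414-104638663, plus strand: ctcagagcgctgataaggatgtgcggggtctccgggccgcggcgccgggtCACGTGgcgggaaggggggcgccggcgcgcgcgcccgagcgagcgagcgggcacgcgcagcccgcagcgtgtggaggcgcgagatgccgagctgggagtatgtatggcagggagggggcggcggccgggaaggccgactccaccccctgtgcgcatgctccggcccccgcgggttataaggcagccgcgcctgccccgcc
Pfkfb3, downstream start, chr2:11502091-11502340, minus strand: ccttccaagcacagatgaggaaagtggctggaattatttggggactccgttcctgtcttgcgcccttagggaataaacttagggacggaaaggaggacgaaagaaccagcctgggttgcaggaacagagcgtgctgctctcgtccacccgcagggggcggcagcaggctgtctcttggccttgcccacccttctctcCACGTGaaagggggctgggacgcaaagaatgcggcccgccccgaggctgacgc
Hk1, upstream start, chr10:62379909-62380158, minus strand: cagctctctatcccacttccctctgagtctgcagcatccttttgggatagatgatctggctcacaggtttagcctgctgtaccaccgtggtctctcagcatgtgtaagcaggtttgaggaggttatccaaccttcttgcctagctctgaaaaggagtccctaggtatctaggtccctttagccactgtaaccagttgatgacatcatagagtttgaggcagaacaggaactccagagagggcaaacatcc
The letters ACGTG occurred in the windows of Hk2 (2 matches, beginning 226 and 52 bases before the start), Slc2a1 (1 match, 36 bases before) and Slc16a1, where both strands of 1 CACGTG palindrome match. They also occurred at both Pfkfb3 starts, 60 bases before the upstream one, whose window is not printed because it overlaps an exon, and within a CACGTG beginning 53 bases before the downstream one. The printed Hk1 window held none. RefSeq windows were found for 37 of the 39 genes. Of their 57 windows 19 (33.3%) held ACGTG, against 16.6% of all 32851 windows of the same length, and 15 of the 37 genes had it at a start. The E-box CACGTG, which contains ACGTG, was in 6 windows (10.5%, against 6.02% of all). The antioxidant response element core TGACNNNGC was in 4 windows, those of Aldoa, G6pdx, Hk1 and Slc16a1 (7.02%, against 10.2%). The genes with ACGTG thus included both higher and lower ones, and the counts do not tell which start was used.

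In the dKO library the genes were shifted slightly upward, with few large differences. By a 2-fold rule (log2 ratio of at least 1 in size) 0 of 39 were higher and 1 was lower, where 1.92% of all measured genes were higher and 4.31% lower. By a 1.5-fold rule 5 were higher (Slc2a1, Hk2, Pfkfb1, Pkm and Slc16a1) and 1 was lower (Pfkfb3), against backgrounds of 8.97% higher and 13.1% lower. Above 0 were 29 of 39, against 47.6% of all measured genes, and the median log2 ratio was 0.17 against −0.02. With library totals alone as the scaling 18 were above 0, against 30.3% of all measured genes, and the median was −0.048, while the median of all measured genes moved by −0.22 to −0.24. Abundant transcripts tended higher in dKO: the median of all genes was −0.16 in the lowest eighth of abundance and 0.29 in the highest, which held 13 of the 39 genes. The 2 eighths next below it, with medians of 0.13 and 0.04, held 8 of the 39 each. With a trend on abundance and length removed, 22 of the 39 were above 0, against 50.7% of all measured genes. The median of the 39 was then 0.043, against 0.007 for all measured genes. Under both alternatives Hk2 and Pfkfb1 kept to the 1.5-fold higher side, Pfkfb3 stayed lower by 2-fold, and Slc2a1, Slc16a1 and Pkm fell short of 1.5-fold while staying above 0.

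Levels per length, in reads per kilobase per mega-read, spanned from 0.138 (Aldoc) to 641 (Aldoa) in WT and from 0.0551 to 721 in dKO. The order at the top was Aldoa, Pkm (323 in WT), Gapdh (288), Ldha (215), Slc16a3 (113) and Eno1 (100) in WT, and the same 6 genes led in dKO. The whole group took up 0.561% of WT reads and 0.580% of dKO reads. The 21 glycolysis genes summed to 3528 CPM in WT and 4337 in dKO (1.23-fold), the 10 genes of pyruvate fate to 1236 and 1558 (1.26-fold), and the 3 glucose transporters to 172 and 238 (1.39-fold). The 5 pentose phosphate genes summed to 204 CPM in both libraries. These sums depend on the scaling. As shares of library reads, glycolysis took 0.385% in WT and 0.397% in dKO, and pyruvate fate 0.135% and 0.143%. The transporters took 0.0187% and 0.0218%, and pentose phosphate 0.0223% and 0.0187%. Within the glycolysis sums, Pkm alone had 786 CPM in WT and 1210 in dKO.

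**Figure D1:**
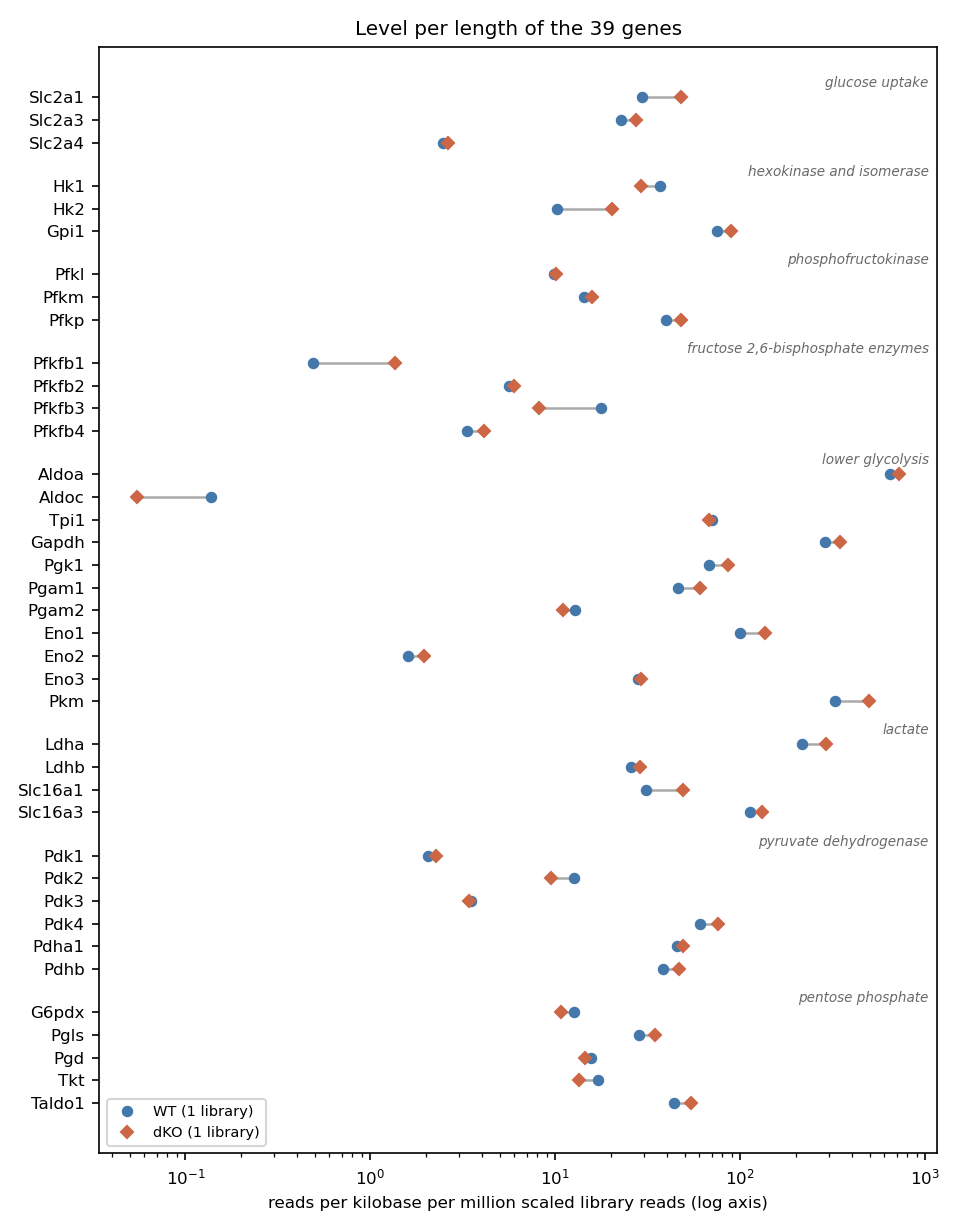
Level of each of the 39 genes in reads per kilobase per mega-read of scaled library size (log axis), 1 WT library (circles) and 1 dKO library (diamonds), by role. Aldoa is highest in both (641 and 721) and Aldoc lowest (0.138 and 0.0551), and Hk2 and Pfkfb3 show wide gaps in opposite directions.

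Of the 3 glucose transporters, Slc2a1 stood out. It encodes GLUT1, the widely expressed basal transporter (chromosome 4, 119108745 to 119137330 on GRCm38), and had 3020 reads in WT and 4934 in dKO, or 75.5 and 123 CPM. That is 1.63-fold higher in dKO (1.56 to 1.71), with log2 ratios of 0.70, 0.45 under library totals and 0.49 after trend removal. Slc2a3, the gene of the high-affinity transporter GLUT3, had 3570 and 4306 reads (1.21-fold, 1.15 to 1.26), and its log2 ratio of 0.27 was 0.02 under library totals. Slc2a4, the gene of the insulin-responsive GLUT4 of muscle fibres, was scarce at 278 and 297 reads (log2 ratio 0.08, and −0.14 under library totals). Per length, Slc2a1 made up 54.0% of the transporter level in WT and 61.7% in dKO, Slc2a3 41.5% and 35.0%, and Slc2a4 4.53% and 3.38%.

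Of other glucose uptake genes, 10 of a list of 12 were measured. Above 0 were 4 and below it 6, where 47.6% of all measured genes were above. By 2-fold 0 were higher and 0 lower (1.92% and 4.31% of all measured genes). By 1.5-fold 2 were lower, where 13.1% of all measured genes were. The most abundant, Txnip, had 15194 reads in WT and 7690 in dKO, a log2 ratio of −0.98 and a level 1.98-fold lower (0.506-fold, 0.492 to 0.520). It passed the 2-fold line under library totals (−1.23), by its row with the highest share (−1.11) and after trend removal (−1.32). Txnip encodes a protein that promotes the removal of GLUT1 from the cell surface and is itself induced by glucose. Slc2a10, a GLUT10 gene, was the other lower one (1478 and 957 reads, log2 ratio −0.61). Tbc1d1, a regulator of transporter traffic, was at 0.44.

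The hexokinases differed from each other in direction. Hk2 (chromosome 6, 82725025 to 82774454), the inducible hexokinase of growing and insulin-responsive cells, had 2255 reads in WT and 4470 in dKO, or 56.4 and 112 CPM. It was 1.98-fold higher (1.88 to 2.09), just inside the 2-fold line, with a log2 ratio of 0.97, 0.72 under library totals and 0.94 after trend removal. Hk1, the constitutive hexokinase, had 6101 and 4862 reads and was lower at 0.797-fold (0.767 to 0.827), with log2 ratios of −0.33, −0.58 and −0.49 in the same order. The Hk2 share of the summed Hk1 and Hk2 level per length was thus 21.8% in WT and 40.9% in dKO, while the reads of both genes together were 1.12-fold higher (1.08 to 1.15). Hk3, the hexokinase of white blood cells, had 52 reads in WT and 5 in dKO (log2 ratio −1.03), in libraries where all 12 immune markers were below 0. The part of immune cells in that value was not tested. Gpi1, the isomerase that follows, was the most abundant gene of this step per length and had 8635 and 10320 reads (1.19-fold, 1.16 to 1.23). Its log2 ratio of 0.26 was 0.0028 under library totals and −0.05 after trend removal.

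**Figure D2:**
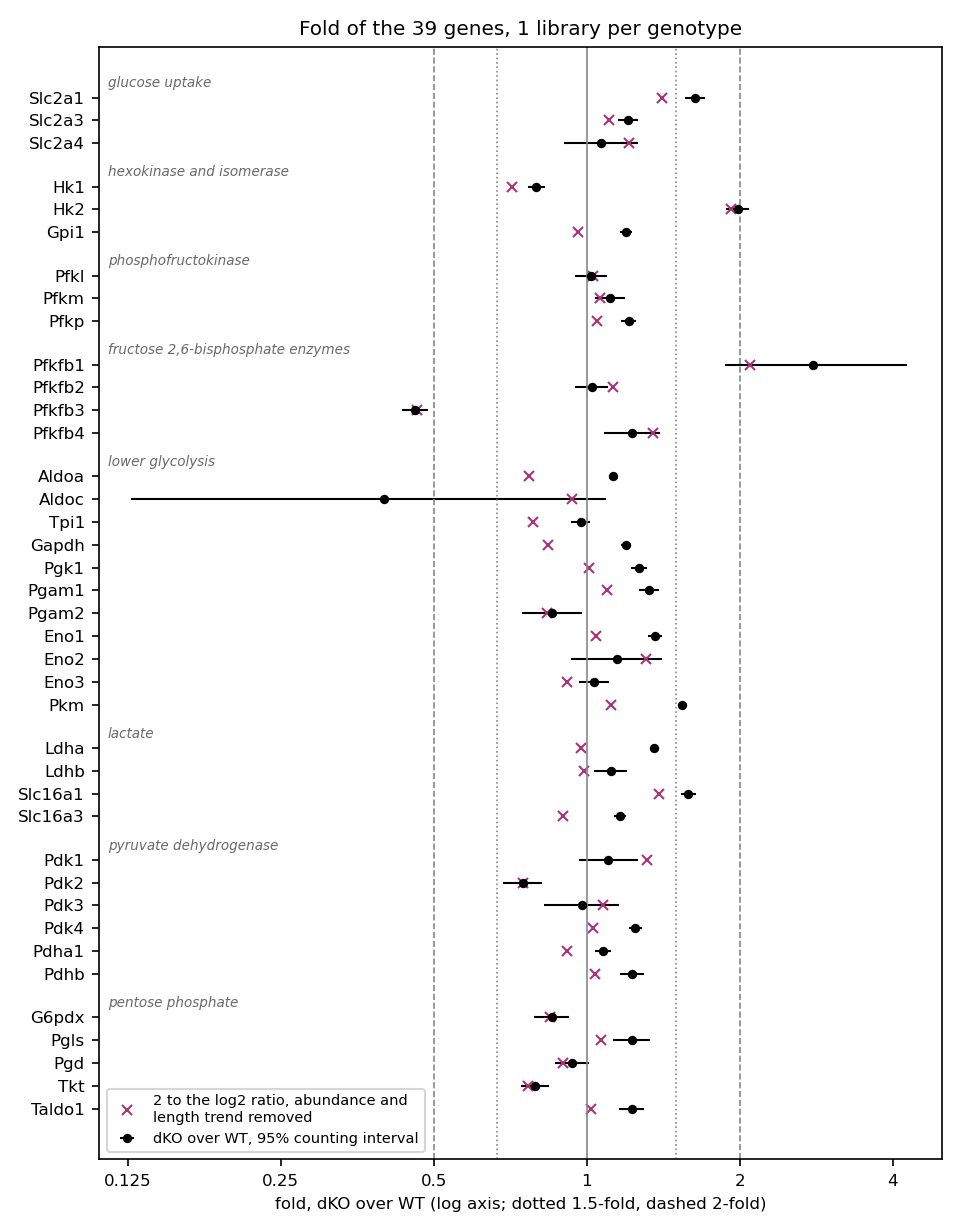
Fold of each gene, dKO over WT CPM, on a log axis with the exact 95% interval for counting error (points and bars) and with the abundance and length trend removed (crosses), by role. Pfkfb3 lies left of the 2-fold line by both measures, Hk2 lies just inside it on the right, and the crosses of most abundant genes of lower glycolysis lie left of their points.

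Phosphofructokinase subunit genes were close in level between the libraries. Pfkp, the platelet-type subunit, was the main one with 62.2% of the family level in WT and 65.0% in dKO, and had 6412 and 7759 reads (1.21-fold, 1.17 to 1.25; log2 ratio 0.27, and 0.02 under library totals). Pfkm, the muscle subunit, had a log2 ratio of 0.15 and Pfkl, the liver subunit, one of 0.03, and both were below 0 under library totals (−0.10 and −0.22). Pfkp has 2 rows of the same length, 4033 bases. The larger had 5922 and 6496 reads and the smaller 490 and 1263, so the smaller made up 7.64% of the gene in WT (Wilson 95% interval 7.02 to 8.32) and 16.3% in dKO (15.5 to 17.1).

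Among the PFKFB genes was the widest difference of the group by log2 ratio, that of Pfkfb3. Pfkfb3 (chromosome 2, 11471430 to 11554071), whose enzyme has a kinase activity far above its phosphatase activity and so raises fructose 2,6-bisphosphate, had 3541 reads in WT and 1630 in dKO, or 88.5 and 40.7 CPM. It was 2.17-fold lower in dKO (2.05 to 2.31), with log2 ratios of −1.10, −1.35 under library totals and −1.11 after trend removal. Its row with the most reads, of 5018 bases, had 2808 and 1348 reads and was 2.08-fold lower. Rows of 5105 and 4655 bases had 368 and 174 WT reads and none (0) in dKO, that is, lower by at least 123-fold and 58.0-fold against a floor of 3 reads per library. The row of 4844 bases went the other way, with 190 and 278 reads. How reads that fit several rows were assigned is not given. A row's count, here and for other genes, need not reflect the level of its transcript, and a 0 need not mean its absence. Pfkfb3 is also known from endothelial cells, whose 12 markers were all below 0 here with a median of −1.47. How much of the Pfkfb3 difference came from those cells was not tested, and in a bulk library fewer cells of a type and less RNA per cell cannot be told apart.

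Pfkfb1, best known from liver and muscle, was the scarce member that lay on the other side, with 34 reads in WT and 95 in dKO (2.79-fold, 1.87 to 4.26). Its log2 ratio was 0.87 with the pseudocount of 1 CPM, 1.38 with 0.1 CPM and 0.33 with 5 CPM, so its place against both fold lines depends on that choice. Pfkfb4 had 449 and 551 reads (log2 ratio 0.27, and 0.04 under library totals). Pfkfb2, the heart-type gene, had 1384 and 1417 (0.03, and −0.21 under library totals), and rows of 3689 and 2382 bases had 0 reads in WT against 139 and 32 in dKO. Per length, Pfkfb3 made up 65.2% of the PFKFB level in WT and 41.6% in dKO, Pfkfb2 20.7% and 30.6%, Pfkfb4 12.3% and 20.9%, and Pfkfb1 1.80% and 6.95%. Pfkfb3 was therefore the leading gene of the family in both libraries, by a smaller margin in dKO. Tigar, which lowers fructose 2,6-bisphosphate, was chosen after its value was seen and had 239 and 150 reads (log2 ratio −0.55).

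**Figure D3:**
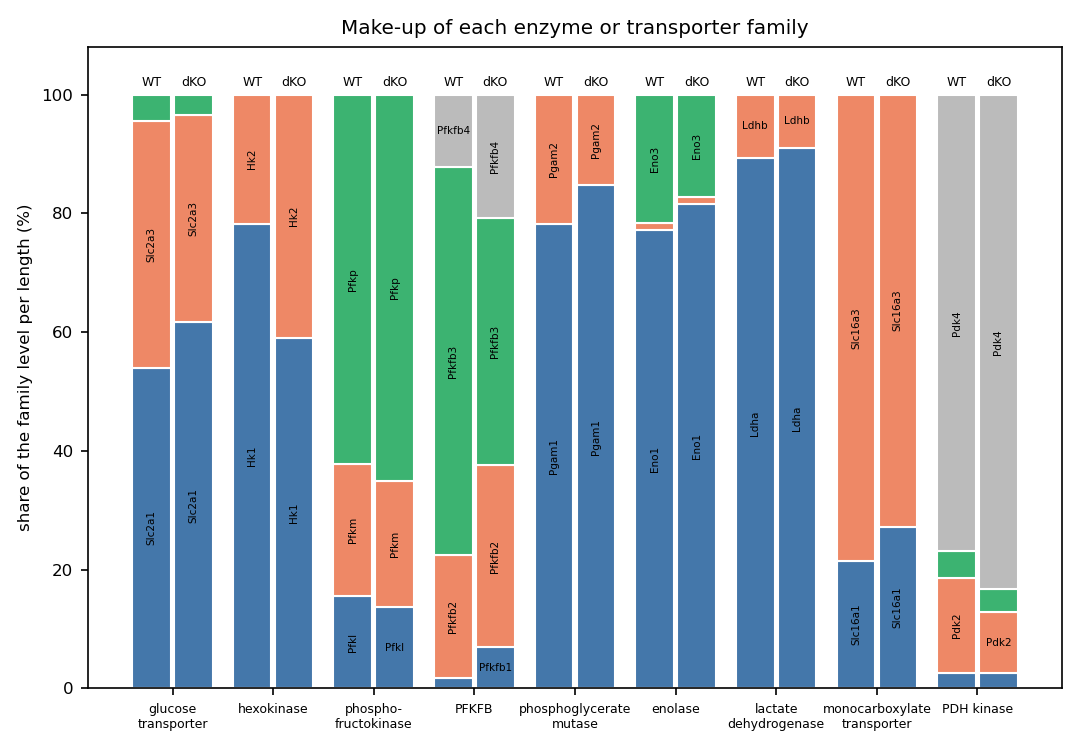
Share of each family's summed level per length taken by each gene, WT and dKO side by side, 1 library each. Hk2 is 21.8% of the hexokinase level in WT and 40.9% in dKO, and Pfkfb3 is 65.2% and 41.6% of the PFKFB level; unlabelled slivers are Slc2a4, Pfkfb1 in WT, Eno2, Pdk1 and Pdk3.

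The 11 genes of lower glycolysis, from aldolase to pyruvate kinase, had a median log2 ratio of 0.17, with 8 above 0, 1 higher by 1.5-fold and 0 lower. Of all measured genes 47.6% were above 0, and by 1.5-fold 8.97% were higher and 13.1% lower. The median of the 11 was −0.05 under library totals and −0.09 after trend removal. Aldoa, the muscle-type aldolase and the most abundant gene of the whole group, had 39093 reads in WT and 44002 in dKO, or 977 and 1099 CPM (1.13-fold, 1.11 to 1.14). Its log2 ratio of 0.17 turned to −0.08 under library totals and −0.38 after trend removal, so its direction rests on the scaling. Aldoc, the brain-type aldolase, had 15 and 6 reads and no direction could be read. Gapdh had 16405 and 19572 reads (log2 ratio 0.25, 0.00032 under library totals and −0.25 after trend removal). Pgk1, phosphoglycerate kinase, was at 0.34 and 0.09 under library totals, and Tpi1, the triose isomerase, at −0.04 and −0.29.

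Pkm (chromosome 9, 59656576 to 59679372), the pyruvate kinase gene of muscle and of most growing cells, was the one gene of this stretch past 1.5-fold by the log2 ratio, and fell short of it under both alternatives. Its reads numbered 31453 in WT and 48442 in dKO, or 786 and 1210 CPM, a 1.54-fold higher level (1.52 to 1.56). The log2 ratio of 0.62 was 0.37 under library totals and 0.16 after trend removal. The gene is known to give the M1 and M2 forms of the enzyme by a choice between exons of like size, and the table holds 2 Pkm rows of the same length, 2432 bases, with no transcript name. The larger row took 67.7% of the reads in WT (67.2 to 68.2) and 68.5% in dKO (68.0 to 68.9), and both rows were higher in dKO, by reads of 21293 and 33161 for the larger and 10160 and 15281 for the smaller. Which row is which form cannot be read from the table.

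The mutase genes differed from each other in direction. Pgam1, the widely expressed phosphoglycerate mutase, had 3367 and 4467 reads (1.33-fold, 1.27 to 1.39), while the muscle mutase Pgam2 had 466 and 398 (0.854-fold, 0.745 to 0.978). Per length, Pgam2 was 21.9% of the mutase level in WT and 15.3% in dKO. Eno3, the muscle enolase, had 1705 and 1762 reads (1.03-fold, 0.966 to 1.10), and 17 of the 20 fibre markers were below 0 (median −0.48). The part of fibre RNA in these values was not tested. Eno2, the neuronal enolase, had 178 and 204 reads, all WT reads in a row of 2797 bases and 95 of the dKO reads in a row of 2440 bases that had 0 in WT.

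Eno1, the widely expressed enolase, had 7109 reads in WT and 9695 in dKO (1.36-fold, 1.32 to 1.41), but this value is uncertain. Eno1b, a near-identical copy of Eno1, had 1295 reads in WT and 3 in dKO. With both summed, an alternative chosen after seeing the data, the counts were 8404 and 9698 and the fold was 1.15 (1.12 to 1.19). The near-identical alpha globin genes also had opposite counts, with 76 and 11070 reads for Hba-a1 and 6865 and 10 for Hba-a2. Reads of such copies cannot be told apart with the counts given, so the level of either copy alone is uncertain.

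**Figure D4:**
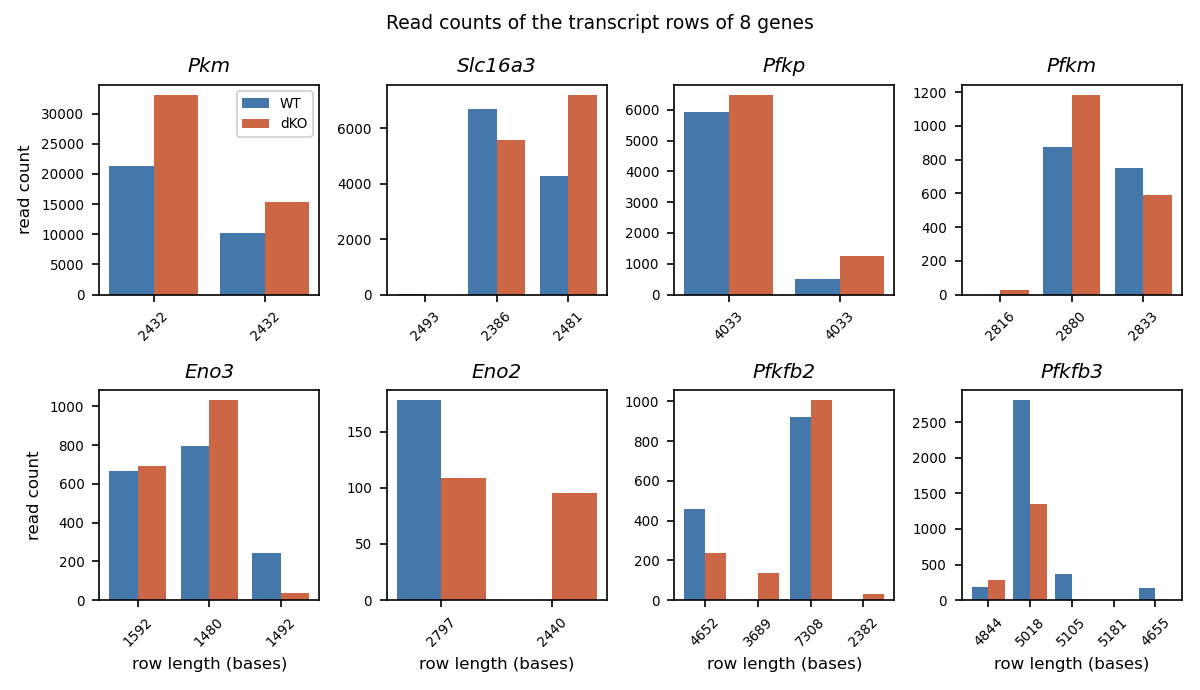
Read counts of the transcript rows of 8 genes with several rows in WT and dKO, by row length (rows with over 3 reads in either library). Both Pkm rows are higher in dKO, the 2 main Slc16a3 rows go in opposite directions, and the Pfkfb3 rows of 5105 and 4655 bases have 0 reads in dKO.

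Genes of lactate formation and export all lay above 0 before other scaling, where 47.6% of all measured genes did. Ldha, the gene of the lactate dehydrogenase subunit that favours lactate formation, had 13961 reads in WT and 18981 in dKO, or 349 and 474 CPM (1.36-fold, 1.33 to 1.39). Its log2 ratio of 0.44 was 0.19 under library totals and −0.03 after trend removal. Ldhb, the heart-type subunit, had 1318 and 1469 reads (log2 ratio 0.15, and −0.10 under library totals), and the Ldha share of both per length was 89.3% in WT and 91.1% in dKO. Slc16a1 (chromosome 3, 104638664 to 104658462), the gene of the monocarboxylate transporter MCT1, which works in both directions, had 5488 and 8696 reads, or 137 and 217 CPM. It was 1.58-fold higher (1.53 to 1.64), with log2 ratios of 0.66, 0.41 under library totals and 0.47 after trend removal. Slc16a3, the gene of the lactate exporter MCT4, was more abundant per length (113 in WT, 131 in dKO) and had 10995 and 12791 reads.

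The log2 ratio of Slc16a3 was 0.22, but −0.04 under library totals, −0.15 after trend removal and −0.28 by its row with the highest share. That row, of 2386 bases, had 6686 and 5567 reads, while the row of 2481 bases had 4279 and 7224 and made up 38.9% of the gene in WT (38.0 to 39.8) and 56.5% in dKO (55.6 to 57.3). The gene's span overlaps that of Csnk1d, which had 24659 and 42691 reads (1.73-fold, 1.70 to 1.76). Since the strand setting is not given, reads of overlapping genes cannot be told apart. In all, 9 of the 39 genes overlap another protein-coding gene, the others being Pfkm, Pfkp, Pfkfb1, Pfkfb2, Tpi1, Eno3, Pdha1 and G6pdx.

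At pyruvate dehydrogenase the members differed little. Pdk4, the kinase gene induced by fasting and fatty acids, was the leading PDK with 76.9% of the PDK level per length in WT and 83.3% in dKO, and had 8359 and 10427 reads, or 209 and 261 CPM (1.25-fold, 1.21 to 1.28). Its log2 ratio of 0.32 was 0.06 under library totals and 0.04 after trend removal. Pdk2 was the lower one, with 1143 and 856 reads (0.749-fold, 0.684 to 0.819; log2 ratio −0.40, −0.65 under library totals). Pdk1, a known target of hypoxia-inducible factor, had 425 and 469 reads and Pdk3 279 and 273, and neither interval of the fold left 1 out (0.965 to 1.26 and 0.825 to 1.16). The subunit genes Pdha1 and Pdhb had log2 ratios of 0.11 and 0.29, and Pdha1 turned to −0.15 under library totals.

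Among 13 measured genes in a list of 16 other genes of pyruvate and lactate handling, 1 was higher and 0 lower by 2-fold (1.92% and 4.31% of all measured genes). By 1.5-fold 1 was higher and 2 were lower (8.97% and 13.1% of all measured genes). Pdp1, the phosphatase that switches pyruvate dehydrogenase back on, had 1114 reads in WT and 2754 in dKO, a 2.47-fold higher level (2.30 to 2.65). Its log2 ratio was 1.28, 1.03 under library totals and 1.27 after trend removal, but the row with the highest share gave 0.51, short of the line. Bsg, the gene of the chaperone that takes MCT1 and MCT4 to the membrane, was the most abundant of the list, with 7839 and 9489 reads and a log2 ratio of 0.27, which was 0.02 under library totals and −0.15 after trend removal. The mitochondrial pyruvate carrier genes Mpc1 and Mpc2 had log2 ratios of 0.21 and 0.10, and both were below 0 under library totals (−0.03 and −0.15).

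The pentose phosphate genes showed no common direction: 2 of 5 were above 0, none was past 1.5-fold, and the median log2 ratio was −0.09 (−0.34 under library totals and −0.16 after trend removal). Of all measured genes 47.6% were above 0, and by 1.5-fold 8.97% were higher and 13.1% lower. G6pdx, the rate-limiting dehydrogenase of the oxidative branch, had 1324 reads in WT and 1131 in dKO (0.854-fold, 0.788 to 0.925). Pgd, the other NADPH-making dehydrogenase, had 1382 and 1296 (0.937-fold, 0.868 to 1.01). Tkt, the transketolase of the non-oxidative branch, had 2193 and 1736 (0.791-fold, 0.743 to 0.843). These 3 genes were lower under each scaling tried, but the interval of Pgd did not leave 1 out. Taldo1, the transaldolase and the most abundant of the 5 per length (44.0 in WT, 54.0 in dKO), had 2246 and 2756 reads, or 56.1 and 68.9 CPM (1.23-fold, 1.16 to 1.30), and Pgls, the lactonase, had 1012 and 1242. Their log2 ratios of 0.29 and 0.28 were both 0.04 under library totals. In a list of 11 further genes of the branch, 8 were measured and 0 were past 2-fold in either direction. By that rule 1.92% of all measured genes were higher and 4.31% lower. H6pd, the form of the oxidative branch in the endoplasmic reticulum, was the most abundant of the 8, with 16497 and 11140 reads (0.675-fold, 0.659 to 0.691). Its log2 ratio of −0.57 fell short of 1.5-fold, but was −0.82 both under library totals and after trend removal, past that line.

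Over all 75 other pathway genes, of which 60 were measured, 1 was higher and 2 were lower by 2-fold, and 4 were higher and 7 lower by 1.5-fold. These counts lie near the shares of all measured genes (1.92% and 4.31% by 2-fold, 8.97% and 13.1% by 1.5-fold). Their median log2 ratio was 0.03. The 2 lower genes were Hk3 and Eno1b, described above. Among 15 measured genes of a list of other glycolysis and gluconeogenesis enzymes the most abundant by level per length in dKO was G6pc3, a widely expressed glucose-6-phosphatase, with 1228 and 1587 reads (log2 ratio 0.36, and 0.11 under library totals).

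**Figure D5:**
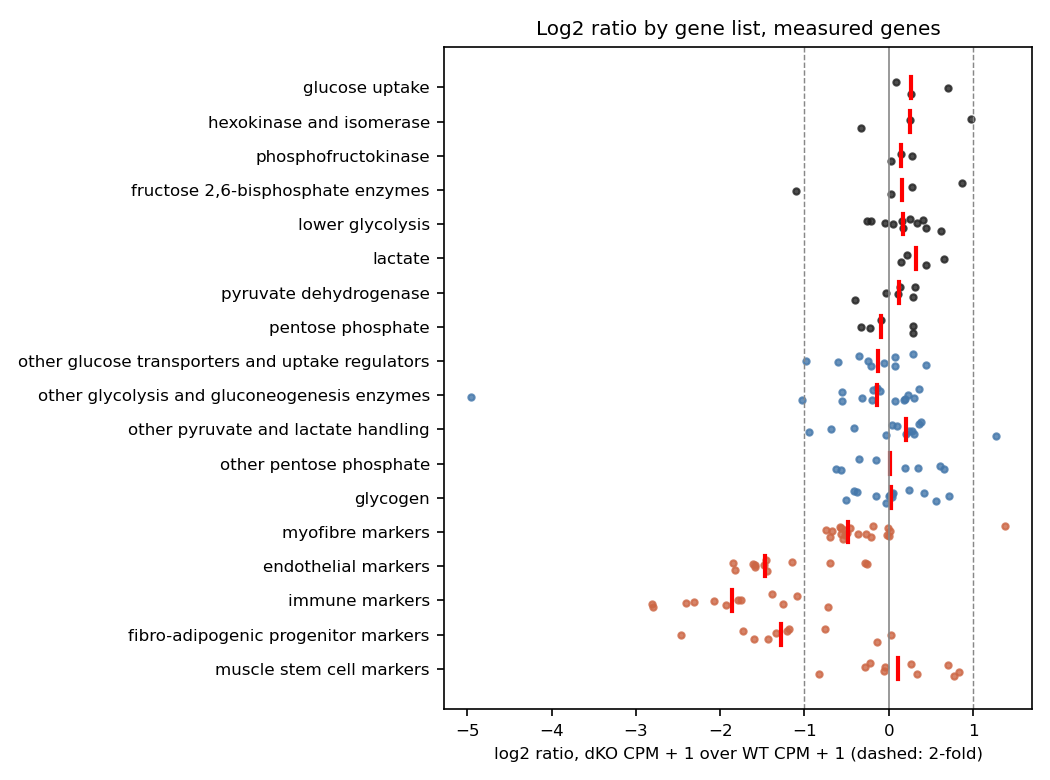
Log2 ratio of each measured gene by list (points) with the list median (red bars). Shown are the 8 role groups of the 39 genes (black), other pathway genes (blue) and cell type markers (orange). The erythroid list is left out because near-identical globin copies had opposite counts that cannot be told apart. With copies summed, the globins were higher in dKO (alpha 1.60-fold, beta 1.53-fold). The role groups cluster near 0, with Pfkfb3 beyond −1, while endothelial, immune and progenitor markers lie mostly below −1.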

How the data were processed

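The authors deposited raw read counts for each transcript of each gene ID, beside the transcript's length (per the file headers). The submitters' processing notes list TopHat2 2.0.9, bedtools, edgeR and mm10 without saying what each was used for. The sources used here do not give the read type, how reads were counted or whether strand was used. Rows were summed per gene, and symbols came from RefSeq on GRCm38.p6 (24462 of 24532 gene IDs matched). The library totals were 36636680 (WT) and 43699831 (dKO). Sizes were scaled by the trimmed mean of M values in edgeR 4.0.16 (limma 3.58.1, R 4.3.3), with factors of 1.09 and 0.916. With 1 library per group no test was made. Measured genes had at least 10 counts in the higher library, and genes were called by a log2 ratio of CPM + 1 past 2-fold or 1.5-fold. Fold intervals are exact conditional binomial (Clopper-Pearson) and shares have Wilson intervals, all at 95%. The intervals cover counting error alone and leave out differences between animals and between libraries. Because PCR copies are not separate molecules, the intervals may be too narrow even for counting error. A count of 0 was set against 3 counts, or 0.0750 CPM in either library. Reads per kilobase used each row's length.

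The members, gene lists and rules were chosen with earlier results of these data known. Named in full are the member with the highest level per length in each role group and each member past 1.5-fold, and of the other lists the genes past 2-fold and the most abundant. Slc2a10, Tbc1d1, Tigar, Mpc1 and Mpc2 were named outside that rule, after their values were seen. Alternatives were other scalings (library totals, DESeq2 1.42.0 median ratios), pseudocounts, count floors, 1 row per gene, and removal of a cubic trend on abundance and length. The steps were tested on simulated counts of 14885 genes for the dKO and WT libraries. Past 2-fold came out 95% of 100 genes set 2.5-fold apart, 100% of 100 set 4-fold apart, and 0 of the other 14685. The changed genes were drawn from those with at least 100 expected WT reads. The simulated counts held counting error only, so the result gives no rate of false calls from differences between animals or libraries.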

Additional observations from a re-analysis of the deposited data

How the results depend on the processing

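With 1 library per genotype no library could be left out, and no paired analysis was possible because there is 1 library per group. Median-ratio scaling and dropping the count floor left all counts of the report within 1.5 times their values. Of the 39 genes, 1 was higher by 2-fold, against 0, with a pseudocount of 0.1 CPM and with the trend removed, in both cases Pfkfb1. By 1.5-fold, 2 were higher with library totals and 2 after trend removal, against 5, and 2 were lower under library totals and 2 with a pseudocount of 0.1, against 1. Among the 24 of the 39 genes with 1 row, 0 were lower by either rule, since Pfkfb3 has several rows and leaves that set. The median of the 39 was −0.048 with library totals and 0.043 once the trend was removed. The sign of 11 of the 39 turned under library totals, of 9 with the trend removed, and of 2 (Eno2 and Slc16a3) by the row with the highest share. With Eno1b added, the log2 ratio of Eno1 was 0.21 in place of 0.44 and the median of the 39 stayed at 0.17. Of the other pathway genes, 0 were higher by 2-fold by the row with the highest share or among genes with 1 row. Lower by 2-fold were 4 under library totals, 5 with a pseudocount of 0.1, 1 with a pseudocount of 5 or at least 100 counts, and 0 among genes with 1 row. By 1.5-fold, 1 was higher under library totals and 2 among genes with 1 row. Lower by 1.5-fold were 13 under library totals, 12 and 3 with pseudocounts of 0.1 and 5, and 3 among genes with 1 row. The set of genes with 1 row is smaller than the 60. All measured genes were not counted by 1.5-fold under these settings, so these counts and those of the 39 have no background. Under library totals 30.3% of all measured genes were above 0, with a median of −0.24. Of all measured genes, 286 were higher and 641 lower by 2-fold, a lower share that changed with scaling. There were 130 higher and 1040 lower under library totals, 698 and 1653 with a pseudocount of 0.1, 154 and 187 with one of 5, and 187 and 385 among genes with 1 row. By the row with the highest share 455 were higher, and with the trend removed 418 were lower. The cause of these shifts was not tested. Depth limits Aldoc (15 and 6 reads) and Pfkfb1 (34 and 95).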

Other observations

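Glycogen and sugar-nucleotide genes, which draw on the same glucose 6-phosphate, were described from a list of 15, of which 14 were measured. None was past 2-fold in either direction, 1 was higher by 1.5-fold, and the median log2 ratio was 0.03 (−0.20 with library totals and 0.19 after trend removal). By 2-fold 1.92% of all measured genes were higher and 4.31% lower, and by 1.5-fold 8.97% were higher and 13.1% lower. Ugp2, which makes UDP-glucose, had 2676 reads in WT and 4434 in dKO (1.66-fold, 1.58 to 1.74). Pygm, the muscle glycogen phosphorylase and the most abundant of the list per length in both libraries, had 3999 and 5380 reads (1.34-fold, 1.29 to 1.40), and Gbe1, the glycogen branching enzyme, 1217 and 1820 (1.49-fold, 1.39 to 1.61). Gys1, the muscle glycogen synthase, had 566 and 415 reads (0.733-fold, 0.644 to 0.833). Ugp2, Pygm and Gbe1 were above 0 and Gys1 below 0 under both library totals and removal of the trend.

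Near the pentose phosphate branch, Pgm2, a phosphoglucomutase, had 1204 and 1924 reads (1.60-fold, 1.49 to 1.72), and Prps1, which makes phosphoribosyl pyrophosphate, 1584 and 2435 (1.54-fold, 1.44 to 1.64). Rpe, the ribulose-phosphate epimerase, had 568 and 353 reads (log2 ratio −0.63). Ugp2, Gbe1, Gys1, Pgm2, Prps1 and Rpe were named after their values were seen.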
